A study of Mus musculus with 24 samples.

Results

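The comparison described here sets inguinal white fat of mice lacking FoxO1 in adipose tissue against inguinal fat of mice carrying the floxed FoxO1 allele. It uses 12 of the 24 libraries of the series, those labelled inguinal adipose, 6 labelled FoxO1 knockout and 6 labelled floxed FoxO1. The other 12 libraries come from gonadal fat. Library names that start with z are knockout, names that start with f are control, and names that end in s are inguinal. The names also carry 6 numbers, read here as animals, M5, M9 and M12 for knockout and M6, M7 and M10 for control, each with 2 libraries per pad. The 2 libraries of each inguinal pad were averaged, so every value below is 1 pad of 1 animal and each group has n = 3. All animals, knockout and control alike, carry a floxed FoxO1 gene. The sources used here do not give the Cre driver, the deleted exons, the strain, the age or the diet. The samples are whole pads, so a lower value can mean fewer cells of a type or less RNA per cell, and these cannot be told apart.

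FoxO1 is a forkhead transcription factor. Insulin, acting through the kinase AKT, causes FoxO1 to be phosphorylated and held in the cytoplasm; when insulin is low it enters the nucleus and switches genes on or off. In fat cells insulin also promotes glucose uptake, its conversion to fatty acids and their storage as triglyceride. Inguinal fat is a subcutaneous pad that holds adipocytes, progenitors, vessels, immune cells and a lymph node, and in mice it can acquire heat-producing beige adipocytes.

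Between 14953657 and 20565394 reads per library were assigned to genes, and all 12 libraries correlated best with the other library of their own pad. White adipocyte genes were abundant in all 6 pads. Adipoq, the adiponectin gene, was 1903, 1816 and 1510 FPKM (fragments scaled by gene length and by the library's total) in knockout pads M5, M9 and M12. In control pads M6, M7 and M10 it was 2045, 2222 and 2136 FPKM, so the groups did not overlap as deposited. After either rescaling of the pads described below, knockout M5 lay above control M6 for Adipoq. Plin1, the main lipid droplet coat gene of adipocytes, ranged from 926 to 1127 FPKM and overlapped between groups. The pads differed in other tissue. The summed FPKM of 11 B cell genes was 216, 5.78 and 357 in knockout pads M5, M9 and M12 and 367, 6.06 and 237 in control pads M6, M7 and M10, so M9 and M7 held almost no lymphocyte transcripts. Of the 9 tested red blood cell genes all 9 were lower in every knockout pad; the list of 11 summed to 2319, 2381 and 2580 FPKM in knockout pads and to 10610, 3085 and 10113 FPKM in controls. Skeletal muscle genes summed to 124, 405 and 20.9 FPKM in knockout pads and 861, 794 and 122 FPKM in controls. Control M7 was thus the control nearest the knockouts in red cell transcripts. The part of blood, muscle and lymph node in the differences below was not tested beyond the fits that carry each list as a covariate.

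**Figure D1:**
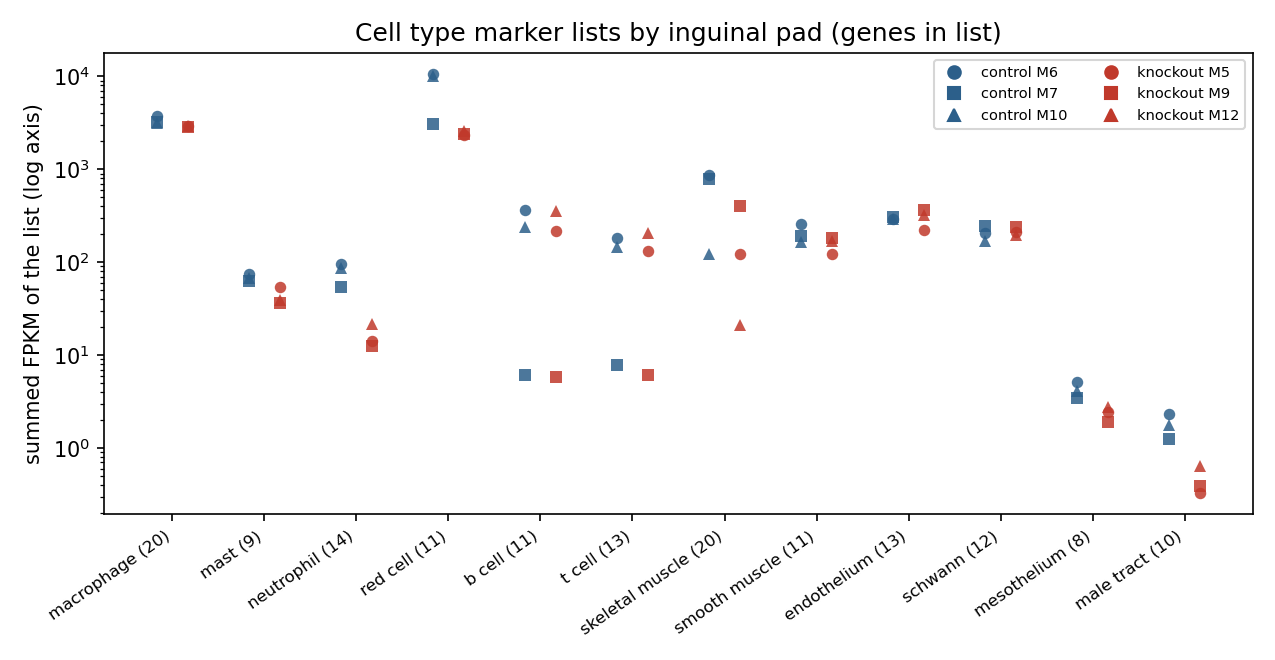
Summed FPKM (log axis) of cell type marker lists in each of the 6 inguinal pads, with the number of genes per list in brackets; blue, control; red, knockout; the marker shape gives the animal. B and T cell lists are between 5.78 and 7.84 FPKM in M7 and M9 and above 100 in the other 4 pads, and all 3 knockout pads lie below all 3 controls for red cells.

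Foxo1 itself was lower in every knockout pad, at 4.12, 2.49 and 5.69 FPKM in M5, M9 and M12 against 19.7, 13.0 and 14.5 FPKM in M6, M7 and M10. The groups did not overlap. Its log2 difference (knockout minus control, on log2 of FPKM plus 0.5) was -1.86 (SE 0.29). The limma adjusted p was 0.129, and an exact permutation test (two-sided) over the animals gave p = 0.1, the smallest that 3 animals against 3 allow. The sister genes stood closer together: Foxo3 averaged 4.79 ± 0.56 FPKM without and 6.33 ± 1.55 FPKM with FoxO1 (SD, n = 3 each), and Foxo4 averaged 19.8 ± 1.0 and 21.7 ± 1.2 FPKM (SD, n = 3 each). Foxo6 was under 1 FPKM in every pad.

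Across the 13621 genes with a mean of at least 0.5 FPKM, 3 passed limma's Benjamini-Hochberg adjusted p threshold of 0.05 (0.022% of genes tested). All 3 fell in the knockout, and 0 genes rose (0%). At an unadjusted p under 0.05, 448 genes were higher (3.29%) and 1576 lower (11.6%). The 3 knockout pads lay above all 3 control pads for 719 genes (5.28%) and below all 3 for 2350 genes (17.3%). This lean towards lower values depends on how the pads are scaled. Of all genes 29.4% had a log2 difference above 0 and 70.6% below. Their median was -0.10 as deposited and -0.02 after TMM scaling (trimmed mean of M-values). With that scaling the pads did not overlap for 1119 genes higher (8.22%) and 1594 lower (11.7%), and with every pad centred on the median of all genes for 1003 higher (7.36%) and 1213 lower (8.91%). Changes of list medians below should be read against the -0.10 of all genes.

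**Figure D2:**
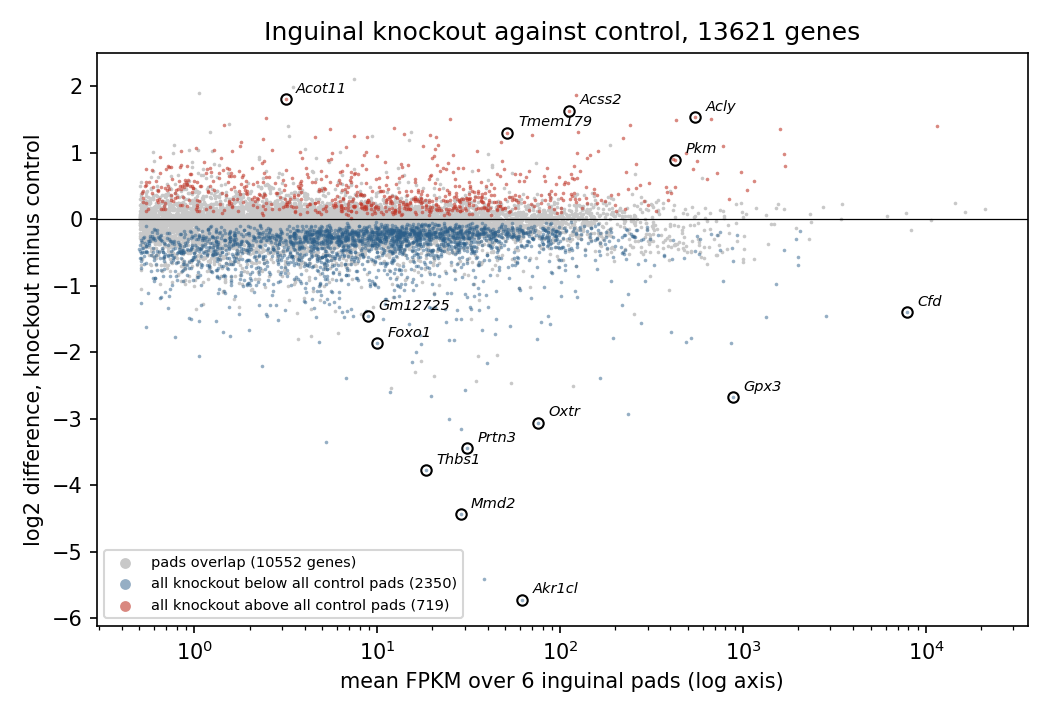
Log2 difference, knockout minus control, of each tested gene against its mean FPKM over the 6 inguinal pads (log axis). Red and blue points are genes whose 3 knockout pads lie all above (719) or all below (2350) the 3 control pads, and circled genes are named in the text; the genes with the greatest distance from 0 lie below it.

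The 3 genes that passed were Mmd2, Prtn3 and Gm12725. Mmd2 (also PAQR10) encodes a Golgi membrane protein related to the receptors for adiponectin and progestins. It lies on the minus strand of chromosome 5 at 142562365 to 142608800 (mm10). Mmd2 stood at 1.99, 2.002 and 1.85 FPKM in M5, M9 and M12 and at 60.8, 34.0 and 70.4 FPKM in M6, M7 and M10. Every knockout pad was thus near 2 FPKM, while the control pads spread over a range of their own with M7 lowest. Mmd2 fell by 4.44 on the log2 scale (SE 0.27, limma adjusted p = 0.0220), and its mean in knockout pads was 3.54% of the control mean. Prtn3 encodes proteinase 3, a serine protease best known from neutrophil granules, and occupies bases 79874476 to 79883174 of chromosome 10, plus strand. Its pads gave 5.92, 4.59 and 3.86 FPKM in knockout and 59.9, 43.3 and 68.8 FPKM in control animals. Prtn3 fell by 3.44 (SE 0.21, limma adjusted p = 0.0220). Gm12725 is annotated as a pseudogene on chromosome 4. It was even within each group, at 4.51, 5.08 and 3.98 FPKM against 13.2, 13.6 and 12.9 FPKM, and fell by 1.46 (SE 0.10, limma adjusted p = 0.0341). Reads of a pseudogene can come from a near-identical copy, which was not tested. With 1 animal left out, none of the 3 passed except without M7, when all 3 did; Mmd2 had a limma adjusted p of 7.65e-04 to 0.164 over the 6 fits, and its difference stayed between -4.75 and -4.23. With skeletal muscle genes as a covariate none of the 3 passed, and with red cell genes as a covariate Mmd2 alone did. Gm12725 also missed the threshold with TMM scaling, with median centring, with no filter and with edgeR.

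The stretches upstream of Mmd2 and Prtn3 are shown because these genes had the smallest p of all. They run from 250 to 51 bases before the RefSeq start (GRCm38.p6), 5′ to 3′ on the strand of the gene, Mmd2 at chr5:142608803-142609002 (minus strand) and Prtn3 at chr10:79879417-79879616 (plus strand). The RefSeq start used for Prtn3 lies inside the gene span given above.
Mmd2: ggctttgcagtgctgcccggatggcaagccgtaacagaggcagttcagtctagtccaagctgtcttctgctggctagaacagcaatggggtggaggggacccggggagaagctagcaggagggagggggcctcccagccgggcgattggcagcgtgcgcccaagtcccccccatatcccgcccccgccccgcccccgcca
Prtn3: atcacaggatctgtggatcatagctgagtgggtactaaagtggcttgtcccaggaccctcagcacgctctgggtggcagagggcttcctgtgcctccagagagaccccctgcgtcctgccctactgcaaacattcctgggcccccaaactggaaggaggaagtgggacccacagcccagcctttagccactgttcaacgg
The forkhead element GTAAACA, searched on both strands in the 250 bases before the start, occurred in neither window, and neither did the E-box CACGTG; these letters were found in 2.16% and 8.21% of the 12382 windows of all genes tested. Among the 12 lower genes named below, 8 had a window in the table, and 0 of 8 held either motif.

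Prtn3 sits in a cluster of serine protease genes on chromosome 10, so its neighbours were read as well, a choice made after their values were seen. Elane, the neutrophil elastase gene, starts 3137 bases after Prtn3 ends, and Cfd, which encodes adipsin, a complement protease that adipocytes secrete, starts 2636 bases further on. Cfd was one of the most abundant transcripts of the pads, at 5268, 4558 and 3321 FPKM in knockout and 9807, 11812 and 12542 FPKM in control animals (log2 difference -1.40, SE 0.33, limma adjusted p = 0.173). Elane was low throughout, with means of 0.858 ± 0.140 and 1.81 ± 0.33 FPKM in knockout and control (SD, n = 3 each). On the other side, BC005764 runs on the opposite strand and shares 159 bases with the Prtn3 gene model. BC005764 read 5.01, 4.95 and 4.26 FPKM against 58.5, 23.7 and 51.5 FPKM, a log2 difference of -3.01 (SE 0.34, limma adjusted p = 0.0829). Whether the counting used strand is not known from these sources, so reads in the shared stretch cannot be assigned to either gene. Neutrophil genes as a group were not abundant: of 14 measured, Mpo, Ctsg, Ly6g and Mmp8 were under 0.5 FPKM in every pad, and 8 of the 14 were too low to be tested. The list summed to 14.0, 12.5 and 21.8 FPKM in knockout pads, and to 94.9, 54.0 and 87.4 FPKM in control pads, where Prtn3 made up most of it.

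Over the 12 inguinal libraries, which share their pads in pairs and differ between the groups, the genes whose log2 FPKM correlated best with Mmd2 were Prtn3 (Pearson r = 0.994), Ggt5, Lrg1, Akr1cl and BC005764. For Prtn3 they were Mmd2, Spon1, Ggt5, Gpx3 and Mettl7a1, and for Gm12725 they were Haus7 (r = 0.981), Grb10, Txndc15, Gpx3 and Col1a2. These are a description of 12 points that are not independent.

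Below the threshold, the 12 lower genes with the smallest p, chosen among those with at least 2 FPKM in a group and no overlap, begin with Mmd2 and Prtn3. Gpx3, the secreted glutathione peroxidase, stood at 280, 232 and 194 FPKM in M5, M9 and M12 against 1924, 1219 and 1418 FPKM in M6, M7 and M10. Its difference of -2.68 (SE 0.22) had a limma adjusted p of 0.0570. Akr1cl, an aldo-keto reductase gene, had the most negative difference of all tested genes, -5.72 (SE 0.60, limma adjusted p = 0.0829). Akr1cl was 1.13, 1.23 and 1.94 FPKM in M5, M9 and M12 and 178, 37.0 and 151 FPKM in M6, M7 and M10. The knockout pads agreed closely while control M7 was far below the other 2 controls. Spon1, which encodes the matrix protein spondin 1, was 6.23, 4.43 and 4.06 FPKM against 35.2, 22.5 and 46.0 FPKM. Lrg1, encoding a secreted leucine-rich glycoprotein, was 128, 148 and 139 FPKM against 467, 326 and 446 FPKM. Smaller but even differences were seen for Haus7, a mitotic spindle component (21.8, 22.1 and 20.5 against 35.4, 36.6 and 35.3 FPKM), and Tppp3, a tubulin-binding protein that also marks some fibroblast progenitors (22.1, 22.4 and 22.0 against 44.5, 46.0 and 57.9 FPKM). The others were Ggt5, a leukotriene- and glutathione-cleaving transferase (-1.21, SE 0.12), Ttpa, the tocopherol transfer protein (-1.29, SE 0.13), Slc25a42, a mitochondrial coenzyme A carrier (-0.87, SE 0.09), and Mrps6, a mitochondrial ribosome protein (-0.81, SE 0.09). Their limma adjusted p lay between 0.0727 and 0.0829, and 18 genes in all were under an adjusted p of 0.1, every one of them lower.

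**Figure D3:**
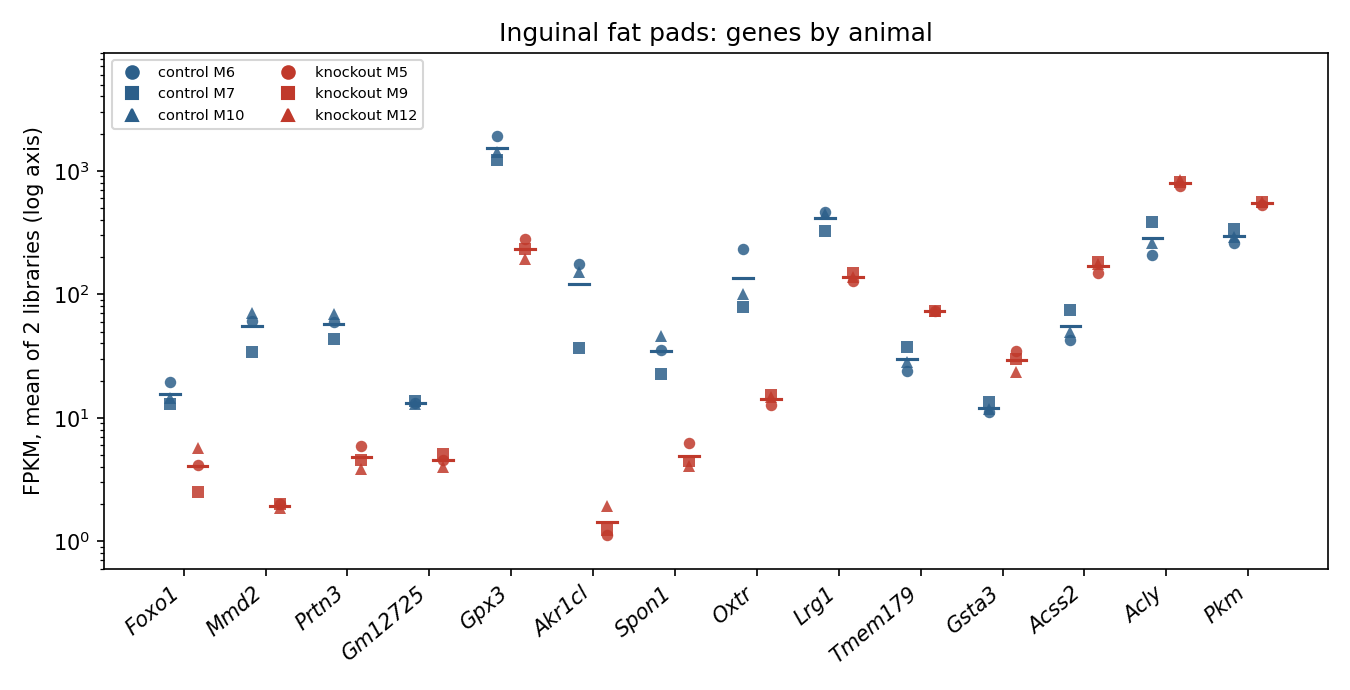
FPKM (log axis) of 14 genes in each inguinal pad, every point the mean of 2 libraries of 1 animal and each bar a group mean. For all 14 genes the knockout pads (red) and control pads (blue) do not overlap, and control M7 (blue square) is the control closest to the knockouts for Akr1cl, Mmd2, Oxtr and Acly.

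Ranked by p, the first 12 higher genes reached limma adjusted p of 0.110 to 0.129, so none passed. Tmem179, a transmembrane protein gene, was 73.5, 72.9 and 72.6 FPKM in knockout pads and 24.1, 37.2 and 28.3 FPKM in controls (log2 difference 1.30, SE 0.16). Gsta3, a glutathione transferase from a family of similar genes whose reads may be shared, was 35.1, 29.9 and 23.6 FPKM against 11.1, 13.4 and 11.9 FPKM. Acot11, an acyl-CoA thioesterase active in brown fat, rested on low values, 3.89, 5.85 and 5.75 FPKM against 0.588, 1.40 and 1.47 FPKM (1.81, SE 0.28). Tlcd2, a membrane lipid regulator, averaged 36.9 ± 5.8 FPKM against 12.9 ± 4.3 FPKM (SD, n = 3 each). Rilp, a lysosome transport protein, differed by 0.62 (SE 0.08) and Cyb5b, an outer mitochondrial cytochrome, by 0.54 (SE 0.08). Acss2, Acly, Pkm, Pfkl and Fdps, also among the 12, are enzymes of the pathways described next.

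Genes that carry glucose carbon into fat were higher in the knockout pads. Of 26 tested glycolysis and pyruvate genes, 17 had all 3 knockout pads above all 3 controls (65.4%, against 5.28% of all genes) and 0 had them below. Their median log2 difference was 0.35. The insulin-responsive glucose transporter gene Slc2a4 (GLUT4) was 139, 139 and 126 FPKM against 86.2, 117 and 105 FPKM. Pfkl, a subunit of phosphofructokinase, which commits sugar to glycolysis, was 79.1, 81.6 and 77.0 FPKM against 45.2, 55.5 and 52.6 FPKM (log2 difference 0.63, SE 0.09). Aldoa, the aldolase, was 2078, 2161 and 2169 FPKM against 1009, 1494 and 1227 FPKM. Eno1, enolase, was 659, 658 and 667 FPKM against 329, 455 and 401 FPKM, and Pkm, pyruvate kinase, 532, 559 and 563 FPKM against 261, 339 and 294 FPKM (0.89, SE 0.12). In each of these 5 genes the control M6 was lowest, M7 highest and the knockout pads were close together. The steps that feed pyruvate into mitochondria were in the same order, with Pcx, pyruvate carboxylase, at 722, 606 and 607 against 242, 440 and 314 FPKM and Pdhb, a pyruvate dehydrogenase subunit, at 517, 544 and 531 against 179, 379 and 337 FPKM. Not every member took part: the hexokinase genes Hk1 (-0.37, SE 0.21) and Hk2 (0.23, SE 0.21), the GLUT1 gene Slc2a1 (-0.10, SE 0.22) and the muscle phosphofructokinase gene Pfkm (-0.09, SE 0.18) overlapped between groups. None of the 26 passed limma's threshold. The median was 0.37 with skeletal muscle genes as a covariate and 0.19 with red cell genes as a covariate.

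Fatty acid synthesis genes showed larger differences. Of 20 tested lipogenesis genes, 13 lay higher without overlap (65.0%) and 1 lower (5%, against 17.3% of all genes), and the median was 0.89. Slc25a1, the mitochondrial citrate exporter, was 1003, 962 and 941 FPKM in M5, M9 and M12 and 223, 565 and 316 FPKM in M6, M7 and M10. Acly, which splits citrate into acetyl-CoA, was 759, 813 and 841 FPKM against 209, 388 and 263 FPKM (log2 difference 1.53, SE 0.23). Acss2, the acetate-using acetyl-CoA synthetase, was 148, 182 and 177 FPKM against 42.4, 74.8 and 49.5 FPKM (1.63, SE 0.22). The carboxylase gene Acaca was 322, 296 and 297 FPKM against 88.8, 181 and 139 FPKM, and Fasn, the fatty acid synthase, 2349, 2291 and 2117 FPKM against 616, 1182 and 938 FPKM (1.35, SE 0.26). The elongase gene Elovl6 had the highest difference of the list, 174, 192 and 198 FPKM against 26.3, 81.4 and 63.2 FPKM (1.86, SE 0.40). Scd1, the delta-9 desaturase, was 14922, 17620 and 16005 FPKM against 3813, 11641 and 5183 FPKM. Me1, malic enzyme, which supplies NADPH, was 656, 580 and 653 FPKM against 149, 306 and 245 FPKM. Knockout pads were uniformly high in these genes, while control M6 was lowest and M7 came nearest to the knockouts. The 1 lower gene was Fads1, a desaturase of polyunsaturated fatty acids (-0.48, SE 0.10). With pads centred on the median of all genes, 0 of the 20 were lower without overlap and 12 higher. The transcription factor genes of the pathway did not follow it: Srebf1 (SREBP-1) was 145, 146 and 128 FPKM against 99.4, 168 and 107 FPKM, and Mlxipl (ChREBP) differed by 0.12 (SE 0.10). None of the 20 passed limma's threshold; the smallest adjusted p was 0.111. The median was 0.75 to 1.15 with any 1 animal left out and 0.31 with red cell genes as a covariate.

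Other branches of the same metabolism were mixed. In the pentose phosphate pathway, which makes NADPH from glucose, 4 of 7 genes were higher without overlap (57.1%, against 5.28% of all genes) and 2 lower (28.6%, against 17.3%). Among the non-oxidative enzymes Tkt (1188, 1186 and 1203 against 555, 904 and 779 FPKM) and Taldo1 (769, 769 and 732 against 390, 616 and 515 FPKM) were higher and Rpia, the ribose-phosphate isomerase, was lower (-0.24, SE 0.11). Of the oxidative enzymes Pgd was higher (0.27, SE 0.11). G6pdx, which encodes the enzyme of the first step, was 84.7, 85.9 and 86.7 FPKM against 117, 94.8 and 95.1 FPKM, lower without overlap, though neither G6pdx nor Rpia was so after either rescaling of the pads. Of 11 glycogen genes 5 were higher without overlap (45.5%, against 5.28% of all genes) and 0 lower (against 17.3%), led by Pygl, a glycogen phosphorylase (224, 208 and 209 against 78.2, 126 and 116 FPKM), and the branching enzyme gene Gbe1 (0.87, SE 0.17). Of 16 triglyceride assembly and droplet genes 6 were higher without overlap (37.5%, against 5.28% of all genes) and 1 lower (6.25%, against 17.3%). Agpat2, the acyltransferase whose loss causes lipodystrophy, was 990, 1097 and 1056 FPKM against 336, 670 and 515 FPKM, and Dgat2, the final acyltransferase, 1316, 1469 and 1320 against 830, 1096 and 848 FPKM. The lower one was Plin4, a droplet coat gene, at 284, 340 and 269 against 542, 377 and 406 FPKM. With pads centred on the median of all genes, 0 of the 16 were lower without overlap. The triglyceride median of 0.23 was 0.03 without control M6. In cholesterol synthesis 7 of 23 tested genes were higher (30.4%, against 5.28%) and 0 lower without overlap, among them Fdps (log2 difference 0.68, SE 0.11) and Lss (0.81, SE 0.14). The median of 0.05 changed sign without M10, to -0.09. No gene of these 4 lists passed limma's threshold.

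**Figure D4:**
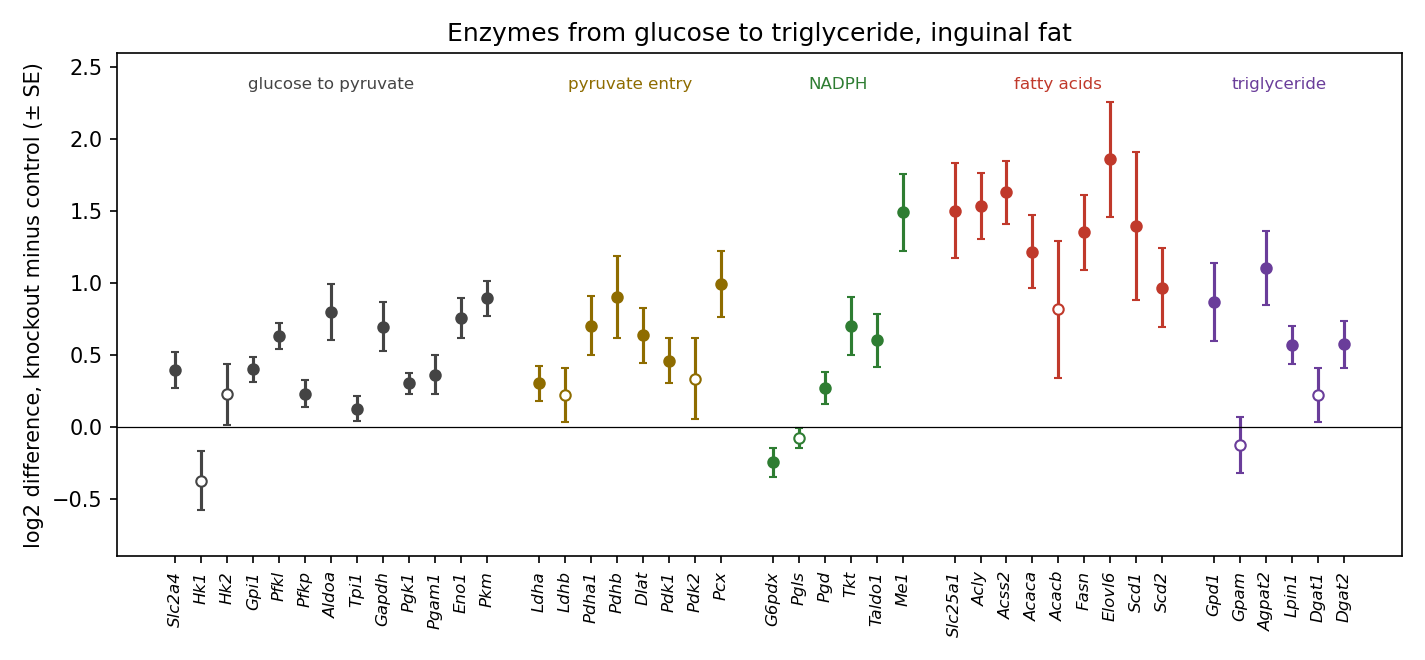
Log2 difference, knockout minus control (± SE), of enzymes and carriers in the order from glucose uptake to triglyceride; filled points are genes whose 3 knockout and 3 control pads do not overlap. Fatty acid synthesis genes lie mostly between 1 and 2, glycolytic genes mostly under 1, and the genes below 0 include Hk1, G6pdx and Gpam.

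Promoter windows were read for the lipogenesis list because 13 of its members lay higher without overlap. Windows matched 17 of its 20 genes, 21 windows in all. The forkhead element GTAAACA was in 2 of 21 (9.52%, against 2.16% of all windows), those of Elovl6 and Aacs, and the E-box CACGTG, a sequence bound by ChREBP and other helix-loop-helix factors, in 4 of 21 (19%, against 8.21%), those of Elovl5, Insig1, Mlxipl and Slc25a1. Aacs encodes acetoacetyl-CoA synthetase, which turns ketone bodies into lipid precursors, and was 144, 150 and 123 FPKM against 66.1, 122 and 90.1 FPKM. After either rescaling of the pads, knockout M12 lay below control M7 for Aacs. In the sequences below, which run from 250 to 51 bases before the RefSeq start in GRCm38.p6, capitals mark the matched element. Elovl6 lies at chr3:129532136-129532335 (plus strand), Aacs at chr5:125475623-125475822 (plus strand) and Slc25a1 at chr16:17928270-17928469 (minus strand).
Elovl6: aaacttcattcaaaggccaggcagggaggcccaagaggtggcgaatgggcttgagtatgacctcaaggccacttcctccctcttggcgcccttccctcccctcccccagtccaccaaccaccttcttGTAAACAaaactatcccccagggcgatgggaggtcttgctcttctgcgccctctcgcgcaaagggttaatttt
Aacs: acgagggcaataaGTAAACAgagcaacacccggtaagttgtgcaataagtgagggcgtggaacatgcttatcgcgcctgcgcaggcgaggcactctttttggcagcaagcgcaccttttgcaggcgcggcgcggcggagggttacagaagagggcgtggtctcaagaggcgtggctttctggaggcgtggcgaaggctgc
Slc25a1: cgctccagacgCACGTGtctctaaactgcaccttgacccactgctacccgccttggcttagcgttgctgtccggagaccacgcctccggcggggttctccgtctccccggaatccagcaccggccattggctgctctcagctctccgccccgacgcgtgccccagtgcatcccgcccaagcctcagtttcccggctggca
Of the E-box genes, Elovl5, Insig1 and Mlxipl overlapped between groups, and Slc25a1 did not. In the glycolysis list 0 of 42 windows held GTAAACA and 5 of 42 held CACGTG (11.9%). Among all genes with the 3 knockout pads above control, 17 of 675 windows held GTAAACA (2.52%) and 51 held CACGTG (7.56%). Among those with the pads below control these were 54 (2.54%) and 167 (7.86%) of 2124 windows. Both sets were near the shares of all windows. For the 12 higher genes named above, 0 of 12 windows held GTAAACA and 1 of 12 held CACGTG. Matches are descriptions of these letters, with no test of binding.

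**Figure D5:**
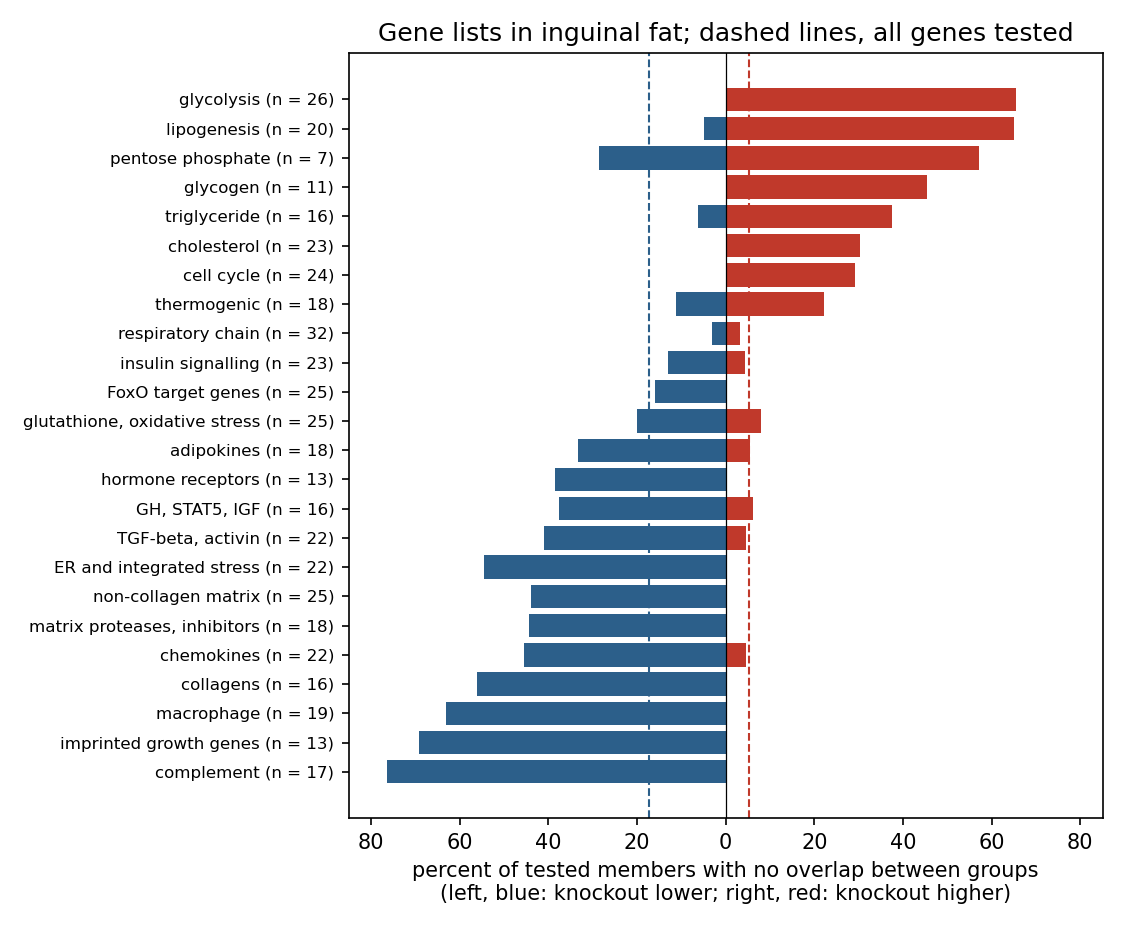
Share of tested members of the metabolic, signalling, matrix and immune gene lists described in the text whose 3 knockout pads lie all above (right, red) or all below (left, blue) the 3 control pads; dashed lines give the shares for all genes, 5.28% and 17.3%. Glycolysis and lipogenesis reach about 65% on the right; of the lists drawn, which leave out cell type markers other than macrophage genes, complement (76.5%), imprinted growth genes (69.2%) and macrophage genes (63.2%) extend furthest left.

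As deposited, genes widely described as FoxO targets were lower about as often as all genes. Of 25 tested, 4 were lower without overlap (16.0%, near the 17.3% of all genes) and 0 higher, with a median of -0.18. The 4 were Bcl6, Bnip3, Irs2 and Sesn1. After TMM scaling 4 of the 25 were lower without overlap (against 11.7% of all genes), and after centring 4 (against 8.91%). Bcl6, a transcriptional repressor, was 6.45, 4.16 and 11.2 FPKM in M5, M9 and M12 and 32.6, 31.98 and 16.8 FPKM in M6, M7 and M10 (log2 difference -1.87, SE 0.40, limma adjusted p = 0.160). Irs2, the insulin receptor substrate, was 4.55, 2.86 and 4.63 FPKM against 8.89, 5.64 and 7.68 FPKM. Sesn1, a stress-induced inhibitor of mTORC1 signalling, differed by -0.51 (SE 0.15) and Bnip3, a mitophagy receptor, by -0.49 (SE 0.12). Other widely described targets overlapped between groups, including Pck1 (1166, 960 and 997 against 642, 882 and 1204 FPKM), Pdk4 (-0.06, SE 0.30), the lipase gene Pnpla2 (0.03, SE 0.25) and Fbxo32 (-0.22, SE 0.16). The counts of insulin signalling genes as deposited were near those of all genes: of 23, 3 were lower without overlap (13.0%, against 17.3%), Grb10, Sgk1 and Irs2, and 1 higher (4.35%, against 5.28%), Slc2a4. After TMM scaling 4 of the 23 were lower (against 11.7% of all genes) and 3 higher (against 8.22%). After centring 3 were lower (against 8.91%) and 1 higher (against 7.36%). Grb10, an adaptor that inhibits the insulin receptor, was 8.36, 8.45 and 7.31 FPKM against 12.9, 12.8 and 13.4 FPKM (-0.67, SE 0.09, limma adjusted p = 0.111). Insr, the insulin receptor gene, and Akt2 differed by -0.19 (SE 0.10) and 0.13 (SE 0.12).

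Secreted and receptor genes were mixed. Of 18 adipokine genes 11 had a negative difference (70.6% of all genes had), 6 were lower without overlap (33.3%, against 17.3% of all genes) and 1 higher (5.56%, against 5.28%). Adipoq was among the 6 lower, but overlapped between groups after either rescaling of the pads. With TMM scaling 4 of the 18 were lower (against 11.7% of all genes) and 0 higher (against 8.22%) without overlap. Agt, angiotensinogen, the precursor of the blood pressure peptide angiotensin, was 11.5, 6.37 and 6.23 FPKM against 84.1, 34.4 and 38.5 FPKM (-2.57, SE 0.40, limma adjusted p = 0.129). Metrnl, a secreted meteorin-like protein, differed by -0.98 (SE 0.19). Lep, leptin, overlapped at 190, 300 and 194 against 472, 338 and 204 FPKM, and Rbp4, retinol-binding protein, was the higher one (363, 379 and 335 against 221, 334 and 202 FPKM). The adipokine median of -0.27 was -0.13 without knockout M9. Of 13 hormone receptor genes 11 had a negative difference, 5 were lower without overlap (38.5%, against 17.3% of all genes) and 0 higher. After centring on the median of all genes 3 of the 13 were lower without overlap, against 8.91% of all genes. Oxtr, the oxytocin receptor, was 12.8, 15.4 and 14.7 FPKM against 231, 79.0 and 101 FPKM (-3.06, SE 0.39, limma adjusted p = 0.111). Pgr, the progesterone receptor, was near 0 in knockout pads, at 0.0995, 0.0652 and 0.0769 FPKM, and 2.74, 1.12 and 2.23 FPKM in controls. Ghr, the growth hormone receptor, was 256, 226 and 203 FPKM against 387, 313 and 347 FPKM. Downstream of growth hormone, Socs2, a feedback inhibitor, was 2.62, 1.57 and 2.58 FPKM against 3.94, 3.19 and 3.14 FPKM, while Stat5a was slightly higher (0.21).

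Imprinted growth genes, expressed from 1 parental copy, had a negative difference in all 13 tested members, and 9 of the 13 were lower without overlap (69.2%, against 17.3% of all genes). Nnat, a small membrane proteolipid, was 372, 433 and 284 FPKM against 1796, 906 and 1369 FPKM (-1.87, SE 0.29, limma adjusted p = 0.129). Cdkn1c, a cell cycle inhibitor, was 14.7, 11.9 and 10.6 FPKM against 53.5, 24.1 and 25.4 FPKM. Peg3 was 2.32, 2.20 and 2.10 FPKM against 10.3, 3.70 and 3.78 FPKM, and the noncoding H19 2.82, 3.60 and 1.90 against 4.71, 6.36 and 7.35 FPKM. Control M6 was well above the other controls for Cdkn1c and Peg3, and the list median of -0.49 was -0.31 without M6 and -0.20 with red cell genes as a covariate.

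Extracellular matrix genes were lower by modest amounts with a few exceptions. Of 16 collagen genes 9 were lower without overlap (56.2%, against 17.3% of all genes) and 0 higher, with a median of -0.32. The fibrillar collagens of connective tissue led, Col1a1 at 75.4, 91.6 and 68.8 FPKM against 151, 128 and 122 FPKM, Col1a2 at 94.5, 103 and 80.6 FPKM against 161, 145 and 146 FPKM, and Col3a1 at 325, 372 and 282 against 502, 453 and 524 FPKM. Of 25 non-collagen matrix genes 11 were lower without overlap (44.0%, against 17.3% of all genes) and 0 higher. Thbs1 and Thbs2, the thrombospondins, which bind and activate growth factors in the matrix, stood out: Thbs1 was 1.24, 1.23 and 1.57 FPKM against 72.2, 7.61 and 26.9 FPKM (-3.78, SE 0.75, limma adjusted p = 0.149), and Thbs2 was 4.36, 3.37 and 3.64 against 113, 13.4 and 34.5 FPKM. The knockout pads agreed closely while the controls spread widely, M6 highest and M7 lowest, as they did for Oxtr and Akr1cl between M6 and M7. Fn1, fibronectin, was 18.9, 16.8 and 15.3 FPKM against 32.3, 25.5 and 33.3 FPKM. Among 18 proteases and inhibitors 8 were lower without overlap (44.4%, against 17.3%), including Adamts2, the collagen propeptidase (14.1, 19.3 and 15.3 against 95.6, 30.7 and 48.0 FPKM), and Mmp2 (-0.49, SE 0.15). Of 22 TGF-beta and activin genes 9 were lower without overlap (40.9%, against 17.3%) and 1 higher; the ligand genes Tgfb2 and Tgfb3 differed by -0.58 and -0.60 and the co-receptor gene Tgfbr3 by -0.48 (SE 0.08). No gene of these 4 lists passed limma's threshold. With red cell genes as a covariate the medians moved from -0.32 to -0.12 for non-collagen matrix, from -0.44 to -0.12 for proteases and inhibitors and from -0.26 to -0.14 for TGF-beta and activin genes. With pads centred on the median of all genes, 6 of the 16 collagens and 6 of the 25 other matrix genes were still lower without overlap. Of all genes 8.91% were lower without overlap with that centring.

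Macrophage and complement transcripts were lower. Of 19 tested macrophage genes 12 were lower without overlap (63.2%, against 17.3% of all genes) and 0 higher, and the median was -0.97. Emr1, the F4/80 antigen gene, was 3.23, 2.50 and 2.88 FPKM against 10.9, 5.15 and 7.94 FPKM. Csf1r, the receptor that macrophages need to survive, was 13.5, 10.6 and 14.6 FPKM against 37.5, 17.9 and 24.6 FPKM, and Mrc1, the mannose receptor of resident macrophages, 9.15, 8.35 and 8.44 against 26.4, 12.7 and 18.9 FPKM. M7 was the lowest control for all 3. The list's summed level ranged from 2864 to 2934 FPKM among knockouts and from 3146 to 3767 FPKM among controls, most of it from Lpl, which adipocytes also express strongly and which differed by 0.07 (SE 0.18). Of 17 complement genes 13 were lower without overlap (76.5%, against 17.3%) and 0 higher, with a median of -0.89; 3 of the 13, C1qa, C1qb and C1qc, are macrophage markers too. C4b was 69.2, 69.7 and 64.2 FPKM against 158, 100 and 142 FPKM. Among 22 chemokine and receptor genes 10 were lower without overlap (45.5%, against 17.3%) and 1 higher, with a median of -0.62. Ccl6 was 47.9, 23.8 and 28.1 FPKM against 150, 76.5 and 123 FPKM, Ccl9 15.5, 8.24 and 9.67 against 53.0, 24.8 and 46.0 FPKM, and Ccr2, the receptor that brings monocytes into tissue, 3.20, 3.06 and 3.99 against 13.2, 5.24 and 8.29 FPKM. Cxcl14 was the higher one (0.61). Of 5 tested mast cell genes 4, all of them proteases, were lower without overlap (80.0%, against 17.3% of all genes). After TMM scaling 3 were (against 11.7% of all genes), and after centring 3 (against 8.91%). The other tested gene differed by 0.39, and 4 of the 9 measured were under the filter. Mcpt4 was 17.7, 11.97 and 12.5 FPKM against 25.6, 21.1 and 22.8 FPKM. B and T cell genes give no comparison here, because M9 and M7 each held almost none: the B cell median was -1.57 without M7 and 1.25 without M9. None of these genes passed limma's threshold, and with red cell genes as a covariate the medians were -0.37 for macrophage, -0.39 for complement and -0.19 for chemokine genes.

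Secretory pathway genes were lower by small and even amounts. Of 22 endoplasmic reticulum and integrated stress genes 21 had a negative difference (against 70.6% of all genes). Without overlap 12 were lower (54.5%, against 17.3% of all genes) and 0 higher. The median was -0.31, and -0.20 with red cell genes as a covariate. The chaperone genes Calr (174, 154 and 185 against 230, 215 and 236 FPKM), Hspa5 (126, 129 and 140 against 165, 153 and 160 FPKM) and Pdia6 (79.4, 72.6 and 73.2 against 96.8, 95.8 and 93.4 FPKM) behaved alike. The stress factor gene Atf3 was lower by more, 1.32, 1.02 and 1.07 FPKM against 3.32, 2.51 and 2.43 FPKM (-0.99, SE 0.16, limma adjusted p = 0.129). After centring on the median of all genes 7 of the 22 were lower without overlap (against 8.91% of all genes) and 1 higher (against 7.36%). Of 25 glutathione and oxidative stress genes 5 were lower without overlap as deposited, a share near the 17.3% of all genes. In the same list 2 were higher (against 5.28%), and the median was 0.04. After TMM scaling 3 were lower (against 11.7%) and 3 higher (against 8.22%). After centring 2 were lower (against 8.91%) and 4 higher (against 7.36%). As deposited, the lower genes besides Gpx3 included Gpx1, the cellular peroxidase (378, 382 and 382 against 603, 512 and 605 FPKM). Nfe2l2 was lower too (NRF2, 23.9, 23.2 and 22.4 against 29.9, 30.7 and 27.6 FPKM). The 2 higher were the transferase genes Gsta3 and Gsta4.

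Genes of heat production and cell division were examined because beige adipocytes can arise in this pad. Ucp1, the uncoupling protein, overlapped at 19.4, 71.4 and 64.4 against 9.51, 22.1 and 53.4 FPKM. Cidea, a lipid droplet protein of brown fat, was 205, 278 and 240 against 42.4, 214 and 146 FPKM, so that knockout M5 lay just under control M7 and the other knockout pads lay above all controls. Of 18 thermogenic genes 4 were higher (22.2%, against 5.28% of all genes) and 2 lower (11.1%, against 17.3%) without overlap. Ppara, a nuclear receptor for fatty acids, was 10.7, 9.70 and 11.0 FPKM against 2.48, 3.80 and 7.06 FPKM. The list median of 0.30 was 0.08 without control M6. Of 32 respiratory chain genes 1 was higher and 1 lower without overlap (3.12% each, against 5.28% and 17.3% of all genes). Among 24 cell division genes 7 were higher (29.2%, against 5.28% of all genes) and 0 lower (against 17.3%) without overlap, all at low levels. Cdk1 was 1.82, 1.94 and 2.49 FPKM against 1.02, 1.07 and 0.962 FPKM, and Mki67 1.92, 1.64 and 2.37 against 1.41, 0.757 and 1.11 FPKM. The median of 0.33 was 0.17 without control M7, 0.16 with muscle genes and 0.69 with red cell genes as a covariate. No gene of these lists passed limma's threshold.

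Whether the inguinal differences were peculiar to that pad was tested against gonadal fat of the same animals. Of 14577 genes 0 had an interaction that passed limma's adjusted p threshold (0%), the smallest being 0.619, and 725 had an unadjusted p under 0.05 (4.97%). With the animal as a block 0 passed as well, and 5.94% had an unadjusted p under 0.05. Values side by side show where the pads were alike and where they were not, without a passing test of the difference. Mmd2 differed by -4.44 in inguinal and -2.95 in gonadal fat, Prtn3 by -3.44 and -1.82, Akr1cl by -5.72 and -3.32, Oxtr by -3.06 and -2.39 and Nnat by -1.87 and -1.60. Fasn differed by 1.35 and 1.52, and the lipogenesis median was 0.89 and 0.77. Glycolysis had a median of 0.35 in inguinal and 0.11 in gonadal fat, where Pkm differed by -0.09 (SE 0.26) and Eno1 by -0.11 (SE 0.22). Acot11 differed by 1.81 and -0.22 (interaction adjusted p = 0.619), Haus7 by -0.72 and -0.08 and Pgr by -2.06 and -0.41.

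In the authors' deposited table of this comparison, 1025 genes are listed as higher and 1195 as lower in knockout. All 25 genes chosen by their p-values are in it. Both rest on the same inguinal libraries, so this is no separate support. The authors' deposited table gives Mmd2 a log2 fold change of -4.18, Prtn3 -3.14, Foxo1 -1.61 and Tmem179 1.27. Each is smaller in size than the log2 ratio of the authors' own group means, so these are not on the scale of the differences above. When the 6 libraries of each group were counted as separate replicates, limma called 2189 genes, 486 higher and 1703 lower.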

How the data were processed

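Per the labels' protocols, a Qiagen RNeasy mini kit was used for extraction and NEBNext Ultra chemistry for the libraries. CASAVA, STAR and the build mm10 are named in the submitters' processing notes; how reads were counted, and whether by strand, is not known from these sources. The authors deposited FPKM for 35275 genes in 24 libraries. Their comparison table, per the file headers, gives read counts, group means as a scaled signal, log2 fold changes and the authors' p-values for listed genes.

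Letters in the library names were read as genotype because the authors' knockout and control mean columns are weighted means of the z and f columns. Names give groups and animal numbers, not individual labels; nothing else says the animals are separate. FPKM was averaged over both libraries of each pad (correlation within a pad 0.995 to 0.997, between animals of a group 0.974 to 0.992). Genes with a mean of at least 0.5 FPKM over the 6 pads were tested with limma 3.58.1 (trend, two-sided; R version 4.3.3) on the scale log2(FPKM + 0.5), which understates differences of low genes, with Benjamini-Hochberg adjusted p under 0.05. The interaction used all 12 pads. Tested on simulated data (13621 genes, 200 changed), this fit called 58% of the 2-fold changes, 89% of the 4-fold changes and 12 unchanged genes. The changed genes were drawn only from those with an expected count above 200 reads, and genes varied independently of each other. These shares need not hold for lower genes or for pads that differ in muscle, blood or lymph node. Whole reads rebuilt from FPKM (100% whole at a tolerance of 0.001) were used for edgeR 4.0.16 and DESeq2 1.42.0.

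Named genes are the 4 FoxO genes, every gene past the threshold, the 12 higher and 12 lower with the smallest p (at least 2 FPKM in a group, no overlap, no unnamed models or pseudogenes) and up to 4 per described list by smallest p; other genes, among them list members and the Prtn3 neighbours, were named after their values were seen. Some genes that the rule names are not reported here. The comparison, the 62 gene lists (1011 genes, 1003 matched by symbol, 6 under another symbol) and their order were chosen with earlier results of these data known. Lists are described by counts and medians over tested members, with no set test; members under the filter are left out. Promoter windows are RefSeq's (GRCm38.p6).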

Additional observations from a re-analysis of the deposited data

How the results depend on the processing

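The count of 3 genes was 3 with a pseudocount of 0.1 or 1, 4 with a mean of at least 2 FPKM, and 2 with no filter, with TMM scaling, with median centring and with edgeR. It was 661 with DESeq2 (234 higher, 427 lower), 2189 with 6 libraries a group, 112 with the spread of all 12 pads, 573, 0 and 1 with B cell, muscle and red cell genes as covariates, and 41 in the 4 pads with lymphocyte transcripts (M5, M12, M6, M10), an alternative chosen after seeing the data. Without 1 animal it was 0 to 79; only without M7 was it above 0 (18 higher, 61 lower). The cause was not tested. The 2024 genes at an unadjusted p under 0.05 became 4137 with 6 libraries a group, 3458 and 667 with B cell and red cell genes as covariates, and 1309 (without M10) to 2913 (without M7) with 1 animal left out.

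Foxo1 passed the threshold at -1.86 with 6 libraries a group, -1.83 with DESeq2, -1.86 with the spread of all 12 pads and -1.85 with B cell genes as a covariate. Of 2308 further values of 116 named genes, 1951 kept their direction and side of the threshold, 330 passed it anew, 24 no longer did and 3 turned: Foxo3 at 0.057, Foxo6 at -0.23 and S100a9 at 0.054, all with red cell genes as a covariate. That covariate also moved the medians of FoxO targets to 0.016, glycogen to -0.0097, triglyceride to -0.051 and thermogenic genes to 0.028. All 3 knockout pads lie below all 3 controls in red cell level, so that covariate and genotype cannot be told apart in full.

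No paired analysis was possible because knockout and control library names share no animal number. In the interaction, the animal as a replicate block left 0 genes called; the deviations of an animal's pads from their group means correlated at -0.10 to 0.14, so the block is an alternative only. Depth limits genes under about 0.5 FPKM, which were not tested.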

Other observations

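Interferon-stimulated genes had a negative difference in all 20 tested members, with 4 lower without overlap as deposited (20%, near the 17.3% of all genes). After TMM scaling 4 of the 20 were (against 11.7% of all genes), and after centring 6 (against 8.91%). Their median log2 difference of -0.54 was -0.28 without M6 and 0.021 with red cell genes as a covariate. Antigen presentation genes had a negative difference in 15 of 16, with 5 lower without overlap (31.2%, against 17.3% of all genes). Their median of -0.38 was -0.68 without M7, -0.07 without M9 and 0.21 with red cell genes as a covariate. Cytosolic ribosomal protein genes had a negative difference in 26 of 26, with 0 lower without overlap (against 17.3% of all genes). Their median of -0.40 was -0.66 without M7, -0.13 without M9 and 0.32 with red cell genes as a covariate; their summed level was 10724, 7017 and 11691 FPKM in M5, M9 and M12 and 17376, 8736 and 13406 FPKM in M6, M7 and M10, so M9 and M7 were lowest in their groups. Of 20 branched-chain amino acid breakdown genes 2 were higher (against 5.28% of all genes) and 1 lower (against 17.3%) without overlap. Of 13 mitochondrially encoded genes 0 were higher and 0 lower without overlap (against 5.28% and 17.3% of all genes).

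Some genes outside the lists, named after their values were seen, were lower in all knockout pads, and their control pads differed widely. The water channel gene Aqp5, known from secretory glands and lung, was 0.560, 0.449 and 0.428 FPKM in knockout and 178, 9.31 and 41.0 FPKM in control pads (log2 difference -5.42, SE 0.98, limma adjusted p = 0.144). Aqp2, the water channel of the kidney collecting duct, differed by -3.35 (SE 0.76). Mucl1, a mucin-like gene of glandular epithelium, was 2.52, 2.46 and 3.06 FPKM against 28.9, 9.15 and 24.6 FPKM. Gas6, a ligand of the TAM receptor kinases, was 44.7, 48.1 and 49.9 FPKM against 653.7, 170.5 and 434.4 FPKM (-2.93, SE 0.47). M6 was the highest and M7 the lowest control for all 4. Of 14 mammary and ductal epithelial markers the milk genes Csn1s1 and Wap were at 0 in all pads and 9 in all were under 0.5 FPKM in every pad, and the list summed to 4.15 to 7.93 FPKM in knockout and 3.47 to 8.87 FPKM in control pads.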
